A study of Homo sapiens with 23 samples.

Results

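ONECUT2 (OC2) was overexpressed in LNCaP, an androgen-sensitive line established from a human prostate adenocarcinoma, and the transcriptome was measured by RNA sequencing. The experiment comprised 4 of the 23 libraries of the series: 2 libraries labelled OC2 OE and 2 labelled Control, chosen by their labels and by their columns in the LNCaP count table. All were LNCaP cells grown in RPMI-1640 with fetal bovine serum, penicillin and streptomycin, with no drug named for them. The series as a whole asked how OC2 acts in prostate cancer cells that lose their dependence on androgen signalling.

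A second reference came from the same table: 2 LNCaP libraries labelled shCon, the hairpin control of a separate knockdown experiment, grown in the same medium. The descriptions of the overexpression and Control libraries share 1 naming scheme and those of the shCon libraries follow another. The labels give neither the vector nor the promoter that drove OC2, nor the selection, the duration, or whether each library came from a pool or from 1 clone. They also do not say whether the libraries of a group came from separate cultures, so every p-value measures the spread between these libraries only. Genes are called against control first, and shCon shows which of those calls depend on the control cells used. Both comparisons share the overexpression libraries and are therefore not independent of each other.

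OC2 belongs to the ONECUT family of transcription factors, which bind DNA through 1 CUT domain and a divergent homeodomain. The family is known for its part in the development of liver, pancreas and nervous system. In prostate cancer OC2 has been described as a driver of tumours that become less dependent on the androgen receptor, the hormone-activated factor that maintains the secretory programme of luminal prostate cells.

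The 4 libraries held 21686338 to 23272088 estimated counts and the shCon libraries 22578675 and 22615507. Levels are given as CPM, the usual scaling of counts to library size, on a common TMM scale over the 6 libraries, where 3 counts in a library correspond to 0.123 to 0.144 CPM. The secretory and epithelial markers of LNCaP were present in all 6 libraries: KLK3, prostate-specific antigen, lay between 973 and 3192 CPM and HOXB13, a prostate lineage factor, between 400 and 487 CPM. Of 10 stromal markers 4 were tested, and the summed level of the 10 was 20 to 22 CPM in control, 20 CPM in each overexpression library and 33.7 to 40.7 CPM in shCon, most of it COL1A1, while DES had 0 counts throughout. The 8 endothelial markers summed to 4.84 to 5.75 CPM in the control and overexpression libraries and to 9.4 and 11.9 CPM in shCon, with CDH5 at 0 in every library. No stromal or endothelial marker was called the same way against both references. Of the blood markers, CD3E and MS4A1 had 0 counts in all 6 libraries and PTPRC 1 count in 1 control library. Of 3 blood markers tested against both references the hemoglobin alpha genes HBA1 and HBA2 rose, and both passed the filter on low counts through overexpression alone. With them rose the summed level of 10 blood markers, from 9.42 and 11 CPM in control to 35.2 and 35.8 CPM: HBA2 was at 0 and 0.0885 CPM in control, 22 and 22.8 CPM under overexpression and 0 and 0 CPM in shCon, and HBA1, whose coding sequence is the same, at 0 and 0 CPM in control, 3.55 and 4.29 CPM under overexpression and 0 and 0.082 CPM in shCon, while HBB had at most 0.0467 CPM in any library. The pairs of values that follow are log2 fold changes against control and against shCon. Alternative fits left out 1 library at a time or used DESeq2, and a call lost "without either library" of a group was lost when each of them was left out in turn. PDGFRB (-2.32 and -0.78), COL3A1 (1.49 and -0.03) and ACTA2 (0.72 and 0.44) were named too for the size of the called change against control, within the stromal markers, although that of ACTA2 was under 2-fold. VWF (-0.14 and -1.07) and ESAM (0.45 and 0.24) were among the highest-level endothelial markers not called against control. CD68 (-0.16 and 1.00) belonged to the better expressed blood markers that were not called against control. The call against control did not hold in every fit for COL3A1 (adjusted p up to 0.102 without either overexpression library or either control library and 0.246 with DESeq2) and ACTA2 (adjusted p = 0.0827 with DESeq2). An edgeR call against shCon was lost in an alternative fit for HOXB13 (adjusted p up to 0.0931 without overexpression replicate 2 or shCon replicate 2).

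Against control, 17046 of 60683 annotated genes passed the filter on low counts, and 10366 of them were called (edgeR quasi-likelihood test, Benjamini-Hochberg adjusted p under 0.05 over all genes tested). That is 60.8% of the genes, with 5380 higher under overexpression (31.6%) and 4986 lower (29.3%). A change of at least 2-fold was called for 2275 genes upwards (13.3%) and 1958 genes downwards (11.5%). With or without a call, both overexpression libraries lay above both control libraries for 41.4% of genes and below them for 38.9% (41.6% and 40.9% against shCon), so groups that do not overlap are common in these data. Against shCon, 11002 of 17182 genes were called (64%), 5705 higher (33.2%) and 5297 lower (30.8%). With library totals in place of TMM factors the split against shCon became 4161 higher and 7270 lower. That scaling moved the median log2 fold change of all genes against shCon from 0.01 to -0.17, so changes of about that size against shCon depend on the scaling.

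Of 16522 genes tested against both references, 3356 rose against both (20.3%) and 2497 fell against both (15.1%). By at least 2-fold against both, 1409 rose (8.53%) and 645 fell (3.9%). A further 678 genes were higher than control but lower than shCon (4.1%), and 684 were lower than control but higher than shCon (4.14%). With library totals the counts called the same way were 2734 higher and 3134 lower. Leaving out either overexpression library reduced the 5853 genes called the same way to 3856 without replicate 1 and to 3772 without replicate 2, where the remaining library was assumed to vary like the others. These percentages are the background for every gene list below: a list in which about 20.3% of the members rose and 15.1% fell against both references moved like all genes. Where a list is described, parentheses give how many genes it holds and the median log2 fold changes of its tested members against control and against shCon, beside medians of 0.02 and 0.01 over all genes tested. The filter asked for about 10 counts in 2 libraries, so a gene under that level in a reference passed through the overexpression libraries alone. The filter thus favoured a rise for such a gene, though not every one was called. Of the genes tested against both references 11% (1814) passed so in at least 1 of the comparisons, and 1019 of these rose against both. The share that passed through a reference alone was 3.86%. Such members are counted in the parentheses, and their share of a list's rises or falls is no support for the list. Genes are named by a rule on size of change and level. A further 104 genes were added after their values were seen, because they were better expressed, have a known role beside a named gene, or were too low to test. Unlabelled pairs of values after a gene are its log2 fold changes against control and against shCon. Where a group held fewer than 3 counts in each library, levels are given in place of a log2 fold change.

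ONECUT2 itself (chr18:57435685-57491297, plus strand, hg38) was at 24.4 and 30.5 CPM in the control libraries, 327 and 299 CPM in the overexpression libraries and 20.3 and 21 CPM in the shCon libraries. Both overexpression libraries lay above all 4 reference libraries, at 11.4 times the control level, a log2 fold change of 3.51 (SE 0.11, edgeR adjusted p = 9.78e-09) against control and 3.93 (SE 0.07, edgeR adjusted p = 6.43e-11) against shCon. The reference cells thus carried OC2 RNA themselves. The counts do not separate RNA of the introduced copy from that of the cell's own gene. Among its relatives, ONECUT3 had 0 counts in all 4 reference libraries and reached 0.561 and 1.21 CPM, while ONECUT1 stayed at or below 0.279 CPM in every library and was not tested. CUX2, a more distant CUT factor, went from 0.144 and 0.177 CPM in control to 1.03 and 0.885 CPM but stood at 2.58 and 2.95 CPM in shCon. Of the 6 ONECUT and related CUT factor genes tested against both references, 3 rose and 0 fell (7 listed, medians 3.02 and 2.13, 3 passed through overexpression alone and 2 of these rose). These numbers include the introduced ONECUT2 and also ONECUT3, so they do not describe the family. SATB1 (0.0959 and 0.0442 CPM in control, 1.12 and 0.699 CPM under overexpression and 0.0821 and 0 CPM in shCon) was also among the CUT factors called against control with the larger changes.

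The steepest rises against both references were genes with no or almost no counts in the reference libraries. SRRM4 (chr12:118981495-119163051), a splicing factor that includes microexons in neurons, was at 0 and 0 CPM in the control libraries, 107 and 117 CPM in the overexpression libraries and 0.041 and 0.164 CPM in the shCon libraries. It had 0 counts in control, so the rise was at least 779-fold, taking 3 counts per library as the floor. MAGEA4, an antigen normally restricted to testis, was at 0 and 0 CPM in control, 68.9 and 66 CPM under overexpression and 0 and 0.164 CPM in shCon, at least 469-fold above control. NGFR (chr17:49495293-49515017), the low-affinity neurotrophin receptor, went from 0.048 and 0.0442 CPM to 70.8 and 66.1 CPM, 1487-fold (95% interval 411 to 12286) above control. The overexpression libraries of all 3 genes stood far above every reference library, and the rule that named the steepest rises required that they not overlap. Such intervals and floors cover counting error only, since reads without molecular identifiers are not independent molecules.

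Another 5 of the 15 steepest rises had 0 counts in all 4 reference libraries and encode transporters, adhesion molecules or secreted proteins. SLC5A5, the sodium-iodide symporter, reached 14.8 and 14.2 CPM, at least 101-fold above control and 118-fold above shCon. CHGB, a core protein of dense secretory granules, reached 10.7 and 13.2 CPM. SLC6A15, a transporter of neutral amino acids in neurons, reached 11.7 and 14.2 CPM, and DSCAM, a neuronal adhesion molecule, 8.36 and 10.6 CPM. BMP5, a secreted growth factor of the BMP family, reached 5.19 and 6.29 CPM, at least 39.9-fold above control. The same rule also named PTCHD1, C3orf14 and ATCAY, each between 5.37 and 7.96 CPM and at 0 in all reference libraries.

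IGF2BP1, a fetal RNA-binding protein, was at 0 and 0 CPM in control, 17.9 and 17.4 CPM under overexpression and 0 and 0.041 CPM in shCon. MATK, a kinase that inhibits SRC-family kinases, was at 0 and 0.0885 CPM in control, 37.1 and 32.1 CPM under overexpression and 0 and 0 CPM in shCon. That neither gene showed any overlap between the overexpression and reference libraries was required by the rule that named them. SSX2 and APOBEC3D also rose from 0 counts in all 4 reference libraries, to 16.8 and 9.92 CPM and 7.71 and 8.34 CPM. SSX2 has the near-identical copy SSX2B, and APOBEC3D shares exons with an overlapping gene on the same strand, so their counts are uncertain.

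**Figure D1:**
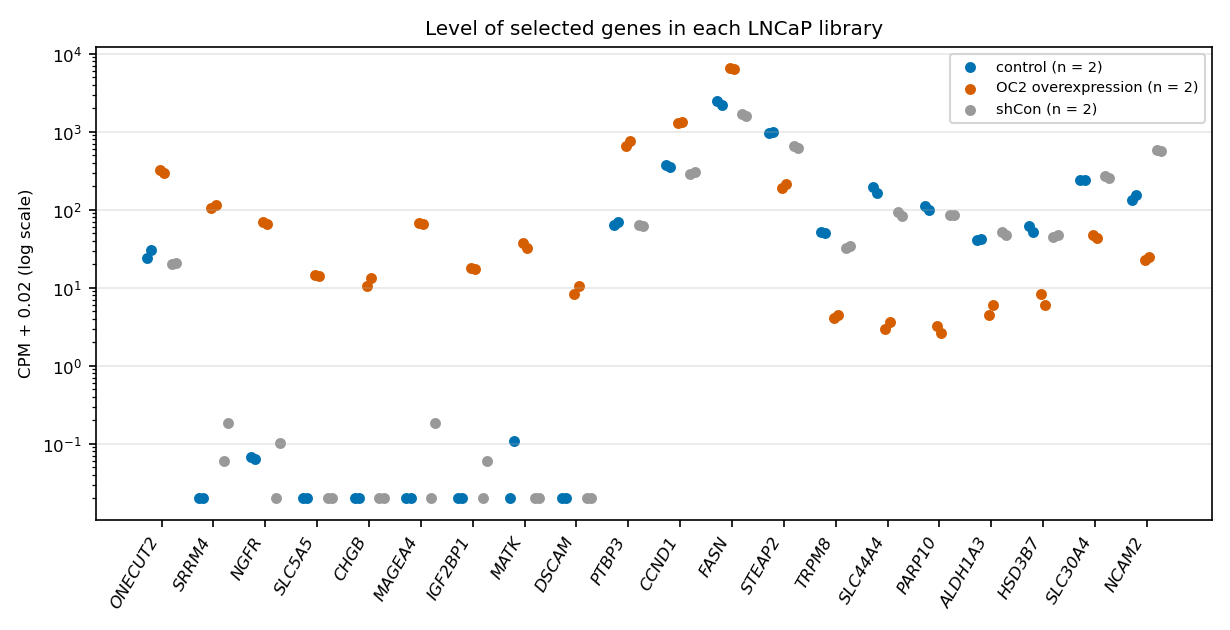
Level of 20 genes in each of the 6 LNCaP libraries, as CPM plus 0.02 on a log axis, with 1 point per library. The overexpression libraries lie above both references for the 12 genes on the left, from ONECUT2 to FASN, and below both for the 8 genes on the right, from STEAP2 to NCAM2, and points at the bottom are libraries with 0 counts.

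The steepest falls included transporters, enzymes and adhesion genes. The rule that named them required the overexpression libraries to lie below all reference libraries. SLC44A4 (chr6:31863192-31879046), a choline and thiamine pyrophosphate transporter of epithelia, was at 195 and 166 CPM in the control libraries, 2.99 and 3.68 CPM in the overexpression libraries and 93.8 and 84.3 CPM in the shCon libraries. The overexpression libraries held the lowest levels by a wide margin, a log2 fold change of -5.76 (SE 0.13, edgeR adjusted p = 1.84e-09) against control and -4.73 (SE 0.11, edgeR adjusted p = 3.52e-10) against shCon. PARP10, a mono-ADP-ribosyltransferase, fell from 113 and 98.7 CPM in control and 85.3 and 85.6 CPM in shCon to 3.27 and 2.61 CPM. Its exons overlap antisense genes, and without stated strand their reads cannot be told apart. The same holds for NGFR, SRRM4, MAGEA4, IGF2BP1, ALDH1A3, TRPM8, FSTL1, C3orf18, HSD3B7, SLC30A4, PCDHB5, PCDHB2, SLCO3A1 and DPP4, and LRG1, ALDH1A3 and FSTL1 share exons with a gene on the same strand. ALDH1A3, which makes retinoic acid, was at 41.3 and 42.7 CPM in control, 4.53 and 6.01 CPM under overexpression and 52 and 47.2 CPM in shCon. HSD3B7, an enzyme of bile acid synthesis, fell from 61.4 and 52.8 CPM in control to 8.27 and 6.01 CPM. SLC30A4, a zinc transporter, fell from 245 and 240 CPM to 47.9 and 43.7 CPM, with shCon at 271 and 254 CPM.

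Adhesion genes stood among the falls. NCAM2 was at 133 and 156 CPM in control, 22.7 and 24.6 CPM under overexpression and 587 and 563 CPM in shCon, so the overexpression libraries lay below both references although the references differed from each other. CADM1 was at 4.7 and 6.02 CPM in control, 1.07 and 0.745 CPM under overexpression and 8.66 and 8.32 CPM in shCon. The remaining genes that the rule named were TRPM8, LRG1, FSTL1, STOX2, C3orf18, ATP2B4, TNFRSF19 and GALNT4, with log2 fold changes against control between -3.85 and -2.70. GALNT4 shares exons with the read-through gene POC1B-GALNT4, which rose (log2 fold change of 1.74 against control and 1.25 against shCon), so the split between them is uncertain. GALNT4 itself was at 0 and 0.932 CPM in the overexpression libraries. In some alternative fits the call against control ended for GALNT4 (adjusted p = 0.198 with DESeq2). Against shCon, the call depended on the fit for GALNT4 (adjusted p = 0.0613 without shCon replicate 1 and 0.247 with DESeq2).

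Most of the neuronal and secretory granule genes tested rose. Of 20 tested against both references 16 rose and 1 fell (30 listed, medians 2.71 and 4.15, 9 passed through overexpression alone and 9 of these rose). SYP, synaptophysin of synaptic vesicles, was at 2.16 and 2.65 CPM in the control libraries, 47.9 and 53.6 CPM in the overexpression libraries and 2.42 and 2.87 CPM in the shCon libraries. SCG3, a granule protein that binds chromogranins, was at 0.048 and 0 CPM in control, 22.9 and 26 CPM under overexpression and 0.123 and 0.041 CPM in shCon. CPLX2, a regulator of vesicle fusion, was at 0.0959 and 0.0885 CPM in control, 36.7 and 38.1 CPM under overexpression and 0 and 0.041 CPM in shCon. In all 3 genes the reference libraries were low and did not overlap with overexpression. SCG3 and CPLX2 passed the filter through overexpression alone, so for them this is no support for the list. Over all genes, both overexpression libraries lay above both control libraries in 41.4%.

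SV2A, a synaptic vesicle glycoprotein, reached 13.6 and 13.1 CPM from 0 counts in control, and SYN1, a synapsin that tethers vesicles, 6.45 and 8.2 CPM. Genes already expressed in the references also rose: TUBB3, a neuronal tubulin, was at 14.5 and 15 CPM in control, 74.6 and 72.6 CPM under overexpression and 23.4 and 24.3 CPM in shCon, and STMN3, a microtubule regulator, at 7.72 and 6.59 CPM in control, 84.2 and 79.6 CPM under overexpression and 4.84 and 5.13 CPM in shCon. RAB3B, a vesicle GTPase, fell, from 115 and 122 CPM in control and 84.8 and 95.6 CPM in shCon to 44.3 and 42.7 CPM. VAMP2 and RAB3A were not called against control. CPE, the carboxypeptidase that trims prohormones, was higher than control and lower than shCon. The general neuroendocrine genes CHGA, NCAM1, UCHL1 and PCSK2 did not reach the level needed for a test in either comparison. The libraries are from bulk RNA, so more cells with a transcript and more of it per cell cannot be told apart. Alternative fits ended the call against shCon of VAMP2 (adjusted p up to 0.0918 without overexpression replicate 2 or shCon replicate 1) and CPE (adjusted p = 0.0566 without overexpression replicate 1).

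Transcription factors of neural and neuroendocrine cells were called in both directions. Of 13 tested against both references 6 rose and 2 fell (24 listed, medians 1.90 and 0.92, 6 passed through overexpression alone and 6 of these rose). POU3F2, a neuronal POU factor, was at 0.384 and 0.354 CPM in the control libraries, 5.51 and 4.89 CPM in the overexpression libraries and 0.287 and 0.123 CPM in the shCon libraries. RCOR2, a REST corepressor, was at 0.384 and 0.177 CPM in control, 4.58 and 5.22 CPM under overexpression and 2.54 and 2.09 CPM in shCon. SCRT1, a neuronal zinc finger repressor, was at 0.336 and 0.265 CPM in control, 2.52 and 1.86 CPM under overexpression and 0.205 and 0.328 CPM in shCon. These 3 rose against both references. NKX2-1, POU3F3 and NEUROG2 rose to no more than 1.82 CPM, while SOX11 and HES6 fell. REST, the repressor of neuronal genes, was at 37.2 and 38.3 CPM in control, 34.5 and 36.7 CPM under overexpression and 39.4 and 41.6 CPM in shCon, and its difference from control was not called (log2 fold change -0.09, edgeR adjusted p = 0.386). NEUROD1, INSM1 and SOX2 were too low to test. SOX4 (0.15 and -0.52) belonged to the better expressed neural factors that were not called against control. Not every fit called REST (adjusted p up to 0.214 without either overexpression library or either shCon library and 0.243 with DESeq2) and NEUROG2 (adjusted p = 0.0671 without overexpression replicate 2) against shCon.

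Ion channel genes of excitable cells rose in part: of 17 tested against both references 10 rose and 3 fell (25 listed, medians 1.91 and 2.32, 8 passed through overexpression alone and 6 of these rose). SCN8A, a voltage-gated sodium channel of neurons, was at 0.863 and 1.24 CPM in the control libraries, 27.6 and 32.6 CPM in the overexpression libraries and 1.35 and 1.48 CPM in the shCon libraries. The difference was a log2 fold change of 4.82 against control and 4.41 against shCon. CACNA2D1, a calcium channel subunit, went from 0.048 and 0.0442 CPM to 6.31 and 7.64 CPM and CACNA1B, the pore of N-type calcium channels, from 0.048 and 0.265 CPM to 9.39 and 7.87 CPM, with shCon at or below 0.164 CPM for both. HCN2, a pacemaker channel, was at 14.1 and 11.5 CPM in control, 50.5 and 45.9 CPM under overexpression and 9.97 and 9.39 CPM in shCon. The 3 channels that fell against both were KCNQ1, KCND3 and CACNA1H, and CACNA1H was far higher in shCon (58.8 and 61.4 CPM) than in control (1.58 and 1.64 CPM). Axon guidance genes were more mixed, with 10 of 28 higher against both, 3 lower and 5 called in opposite directions (35 listed, medians 0.52 and 0.24, 6 passed through overexpression alone and 5 of these rose). EPHA7, an ephrin receptor, was at 0 and 0 CPM in control, 9.86 and 11 CPM under overexpression and 1.44 and 2.21 CPM in shCon. PLXND1, a semaphorin receptor, was at 1.29 and 1.37 CPM in control, 17.9 and 16.9 CPM under overexpression and 1.76 and 1.48 CPM in shCon. ROBO1, the SLIT receptor, rose from 0.815 and 1.15 CPM in control to 19.5 and 20.6 CPM, but shCon held 19.7 and 20.5 CPM. KCNC1 (4.72 and 6) was named too for the size of the called change against control, within the ion channel genes. KCNH6 (0.48 and 0.354 CPM in control, 0.607 and 1.26 CPM under overexpression and 0.041 and 0 CPM in shCon) was among the highest-level ion channel genes not called against control. KCNMA1 (0.47 and -1.95) went opposite ways against control and shCon, among the ion channel genes. DCC (0 and 0 CPM in control, 0.561 and 0.699 CPM under overexpression and 0 and 0 CPM in shCon) and SEMA3E (0.048 and 0.0885 CPM in control, 2.29 and 2.61 CPM under overexpression and 0 and 0 CPM in shCon) were named too for the size of the called change against control, within the axon guidance genes. PLXNA1 (-0.17 and 0.22) and SEMA3C (0.11 and 0.61) were among the highest-level axon guidance genes not called against control. SEMA6A (2.58 and -1.06) and UNC5A (-1.78 and 2.54) went opposite ways against control and shCon, among the axon guidance genes. A call against control that some fits did not make was that of CACNA1H (adjusted p = 0.0866 with DESeq2). For KCND3 (adjusted p = 0.0506 without overexpression replicate 1) the call against shCon was not made in all fits.

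Promoters of 3 genes that rose against both references are printed because each holds the letters ATTGAT, known as a core of ONECUT binding sites. They were chosen after their values were seen. Each runs from 250 bases before to 50 bases after the RefSeq start on GRCh38.p14, 5′ to 3′ on the gene's strand, with the match on either strand in capitals. SCN8A lies on the plus strand (chr12:51590983-51591282), with the match starting at -41. EPHA7 lies on the minus strand (chr6:93419510-93419809), with the match at -32. UGT2B11, described with the glucuronidation enzymes, lies on the minus strand (chr4:69214699-69214998), with the match at -45.
SCN8A: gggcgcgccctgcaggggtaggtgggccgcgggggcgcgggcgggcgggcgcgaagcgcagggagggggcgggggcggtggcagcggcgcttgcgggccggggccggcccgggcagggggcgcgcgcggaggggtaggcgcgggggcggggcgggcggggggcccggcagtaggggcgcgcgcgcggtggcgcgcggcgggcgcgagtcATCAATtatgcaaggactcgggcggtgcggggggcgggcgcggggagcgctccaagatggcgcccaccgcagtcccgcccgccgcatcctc
EPHA7: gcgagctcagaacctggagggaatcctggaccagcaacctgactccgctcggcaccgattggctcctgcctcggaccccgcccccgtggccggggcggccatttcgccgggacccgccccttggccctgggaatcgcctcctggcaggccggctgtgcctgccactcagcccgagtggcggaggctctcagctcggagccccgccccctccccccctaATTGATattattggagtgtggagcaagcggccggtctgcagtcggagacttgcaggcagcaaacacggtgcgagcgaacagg
UGT2B11: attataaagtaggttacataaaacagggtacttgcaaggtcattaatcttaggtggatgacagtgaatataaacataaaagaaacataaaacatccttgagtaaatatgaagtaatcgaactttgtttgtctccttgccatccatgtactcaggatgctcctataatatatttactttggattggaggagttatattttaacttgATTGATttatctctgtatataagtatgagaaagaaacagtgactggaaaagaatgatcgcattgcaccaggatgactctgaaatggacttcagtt

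The hexamers were searched on both strands in these windows, ATTGAT (reverse complement ATCAAT) and the palindrome ATCGAT. A promoter can hold both. ATTGAT occurred in 6.4% of all 27305 RefSeq promoters and ATCGAT in 0.776%. Of the 16522 genes tested against both references, 15070 had a symbol of their own and 11662 a promoter in the table; 3.2% of these promoters held ATTGAT and 0.746% ATCGAT. Among genes at least 2-fold higher against both references the shares were 5.24% (50 of 955 promoters) and 0.733% (7 of 955). Among genes at least 2-fold lower they were 2.28% (8 of 351) and 0 of 351. Median GC content was 58.3% over all RefSeq promoters. It was 65.3%, 64.7% and 63.3% in the 3 sets of tested, higher and lower genes. None of these differences was tested, and a match is a description, not a binding site or a cause. Of the 15 steepest rises and 15 steepest falls, those with a promoter in the table held neither hexamer.

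Splicing regulators rose in part. Of 24 tested against both references 11 rose and 1 fell (30 listed, medians 0.38 and 0.53, 5 passed through overexpression alone and 5 of these rose), and 4 were called in opposite directions. PTBP3, a polypyrimidine tract-binding protein and repressor of exon inclusion, was at 63.4 and 70.1 CPM in the control libraries, 664 and 769 CPM in the overexpression libraries and 64.1 and 62 CPM in the shCon libraries. Its increase was similar against both references, a log2 fold change of 3.42 (SE 0.10, edgeR adjusted p = 5.11e-09) against control and 3.51 (SE 0.08, edgeR adjusted p = 2.37e-10) against shCon. SRRM3, a relative of SRRM4 that also acts on microexons, was at 4.8 and 5.04 CPM in control, 21.7 and 22 CPM under overexpression and 1.15 and 1.07 CPM in shCon. CELF3, CELF4, CELF5 and KHDRBS2, RNA-binding proteins found mainly in brain, rose against both references to levels between 1.49 and 9.18 CPM. PTBP1 (569 and 562 CPM under overexpression) and CELF1 were not called against control. NOVA1, a neuronal splicing factor, was lower than control and higher than shCon. NOVA2 (0 and 0 CPM in control, 0.514 and 0.512 CPM under overexpression and 0 and 0 CPM in shCon) was named too for the size of the called change against control, within the splicing regulators. QKI (0.71 and -0.79) was called in opposite directions against control and shCon, within the splicing regulators. The call against shCon did not hold in every fit for CELF1 (adjusted p up to 0.155 without either overexpression library or shCon replicate 2).

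**Figure D2:**
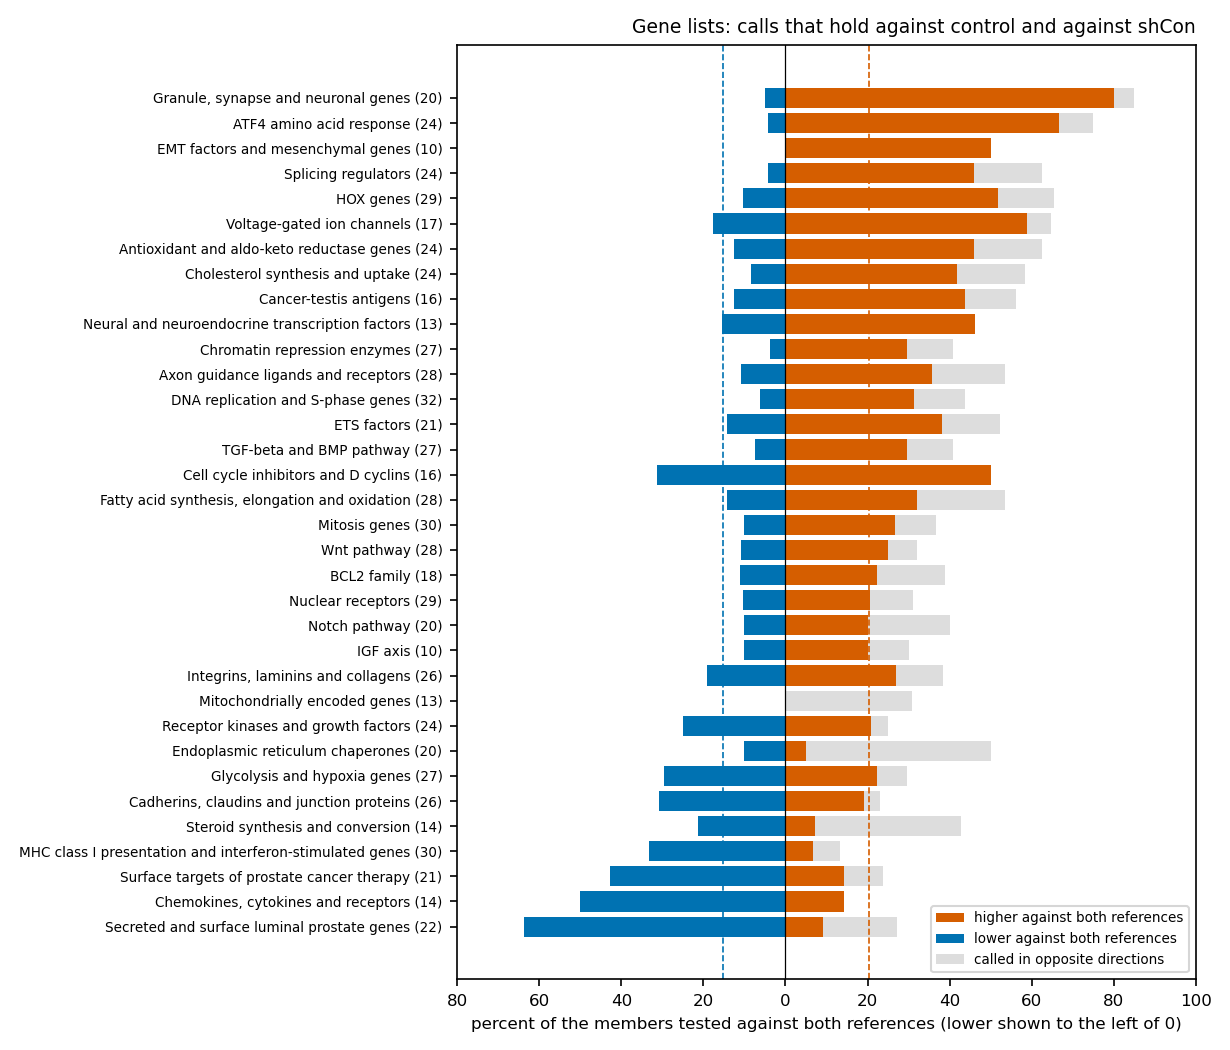
Share of each gene list's tested members called higher (orange, right) or lower (blue, left) against both references, or called in opposite directions (grey), in percent, for lists with at least 10 members tested against both; the number tested is in parentheses. Dashed lines mark the shares over all genes, 20.3% higher and 15.1% lower. Neuronal and granule genes lie at the top with 16 of 20 higher, and secreted and surface luminal genes at the bottom with 14 of 22 lower. The shares include members that passed the filter on low counts through 1 group alone, which favours a difference. Among the neuronal and granule genes 9 passed so through overexpression, and all 9 rose. Of the luminal genes 2 passed through a reference alone.

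Secreted and surface genes of luminal prostate cells, many of them known targets of the androgen receptor, fell. Of 22 tested against both references 14 fell and 2 rose (23 listed, medians -0.76 and -0.87, 2 passed through a reference alone). TRPM8 (chr2:233917398-234019522), a cold-sensing cation channel of prostate epithelium, was at 51.8 and 50.4 CPM in the control libraries, 4.11 and 4.42 CPM in the overexpression libraries and 32.3 and 34.4 CPM in the shCon libraries. It fell to about the same low level in both libraries, a log2 fold change of -3.58 (SE 0.11, edgeR adjusted p = 6.9e-09) against control and -2.96 (SE 0.10, edgeR adjusted p = 6.59e-09) against shCon. STEAP2, a metalloreductase of the cell surface, was at 977 and 996 CPM in control, 189 and 216 CPM under overexpression and 651 and 615 CPM in shCon. TMPRSS2, a surface protease, was at 495 and 489 CPM in control, 240 and 229 CPM under overexpression and 540 and 561 CPM in shCon. The overexpression libraries lay below all reference libraries for these genes, which the rule for the steepest falls had required of TRPM8. STEAP4 (-3.13 and -1.62) was among the luminal genes with the larger called changes against control. Its call against shCon was lost without either overexpression library or either shCon library and with DESeq2 (adjusted p = 0.281).

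KLK3 fell as well, from 3192 and 3083 CPM in control and 1761 and 1873 CPM in shCon to 1047 and 973 CPM. KLK2, its close relative, was lower than control but higher than shCon. FOLH1, prostate-specific membrane antigen, was at 696 and 729 CPM in control, 444 and 460 CPM under overexpression and 908 and 838 CPM in shCon. SPDEF, an ETS factor of luminal cells, and ACP3, prostatic acid phosphatase, were the 2 members that rose against both references, SPDEF to 408 and 397 CPM. FKBP5 and TSC22D3, which respond to steroid receptors, were not called against control (-0.13 and 0.07 log2) and were higher than shCon. PLPP1 and PMEPA1 were lower than control and higher than shCon; for PLPP1 the difference from shCon of 0.14 log2 turned to -0.03 when library totals replaced TMM. HOXB13 was at 434 and 400 CPM in control, 427 and 405 CPM under overexpression and 472 and 487 CPM in shCon and not called against control. An edgeR call against control was lost in an alternative fit for ACP3 (adjusted p up to 0.0711 without overexpression replicate 2 or control replicate 2 and 0.137 with DESeq2). In some alternative fits the call against shCon ended for KLK2 (adjusted p up to 0.259 without either overexpression library or shCon replicate 1), FKBP5 (adjusted p up to 0.137 without either overexpression library), PLPP1 (adjusted p up to 0.219 without either overexpression library or either shCon library) and PMEPA1 (adjusted p up to 0.203 without either overexpression library or shCon replicate 1 and 0.0619 with DESeq2).

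Surface proteins used as targets of prostate cancer therapy overlapped with that list and fell in 9 of 21 cases against both references, with 3 higher (26 listed, medians -0.53 and -0.04, 2 passed through overexpression alone and 2 of these rose). STEAP1 was at 301 and 308 CPM in control, 102 and 112 CPM under overexpression and 309 and 283 CPM in shCon. L1CAM, a neural adhesion molecule, rose from 0.623 and 0.531 CPM to 7.71 and 8.76 CPM. GPC1 and GPC3, glypicans, and TM4SF1, a tetraspan protein, fell. MME, neprilysin, was at 1340 and 1429 CPM in control, 346 and 366 CPM under overexpression and 106 and 110 CPM in shCon, below control and above shCon. ENPEP (0 and 0.0442 CPM in control, 0.935 and 1.72 CPM under overexpression and 0 and 0 CPM in shCon) was among the surface targets with the larger called changes against control. SLC39A6 (-0.12 and 0.19) and CD46 (0.10 and 0.39) had the higher levels among surface targets that missed the threshold against control. Against shCon, the call depended on the fit for GPC3 (adjusted p up to 0.17 without either overexpression library or shCon replicate 1 and 0.207 with DESeq2).

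Epithelial junction genes went both ways. Of 26 tested against both references 5 rose and 8 fell (30 listed, medians -0.03 and -0.16, 3 passed through overexpression alone and 3 of these rose, 1 passed through a reference alone); without overexpression replicate 1 or replicate 2 the falls numbered 5 and 4. CDH1, E-cadherin, was at 631 and 666 CPM in the control libraries, 402 and 405 CPM in the overexpression libraries and 533 and 518 CPM in the shCon libraries. Its fall was modest, a log2 fold change of -0.69 against control and -0.38 against shCon. TJP1, the tight junction scaffold ZO-1, was at 400 and 434 CPM in control, 82 and 89.8 CPM under overexpression and 129 and 129 CPM in shCon. CDH2, N-cadherin, went from at most 0.048 CPM in the references to 4.39 and 5.22 CPM, and GJA1, the gap junction protein connexin 43, to 7.1 and 8.62 CPM. CLDN1, a claudin of tight junctions, rose too, while CTNND1 and DSP were not called against either reference. GJB2 (-3.36 and -0.99) was also among the junction genes called against control with the larger changes. PKP3 (-0.18 and 0.13) belonged to the better expressed junction genes that were not called against control. CDH26 (1.30 and -1.94) was called one way against control and the other against shCon, among the junction genes.

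Mesenchymal genes rose in part. Of 10 tested against both references 5 rose and 0 fell (22 listed, medians 1.16 and 1.20, 5 passed through overexpression alone and 3 of these rose). TWIST1, a basic helix-loop-helix factor, was at 0.144 and 0.133 CPM in the control libraries, 40.7 and 40.9 CPM in the overexpression libraries and 11.4 and 10.6 CPM in the shCon libraries, so shCon lay between control and overexpression. VIM, vimentin, was at 7.48 and 8.98 CPM in control, 90 and 87.9 CPM under overexpression and 24.4 and 29.2 CPM in shCon. FN1, fibronectin, was at 410 and 420 CPM in control, 730 and 804 CPM under overexpression and 295 and 285 CPM in shCon. LOXL2 and TNC rose to at most 1.87 CPM. SNAI1 was not called against either reference, and ZEB1, ZEB2, TWIST2 and MMP2 were too low to test. LOX (0.04 and 2.56) was among the highest-level mesenchymal genes not called against control. Alternative fits ended the call against shCon of LOXL2 (adjusted p up to 0.12 without overexpression replicate 1 or either shCon library and 0.193 with DESeq2).

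Laminin and integrin genes were mixed, with 7 of 26 higher against both references and 5 lower (32 listed, medians 0.39 and -0.09, 1 passed through overexpression alone and 1 of these rose, 1 passed through a reference alone). LAMA1 was at 4.89 and 4.69 CPM in control, 27.2 and 26.9 CPM under overexpression and 11.4 and 11.9 CPM in shCon and LAMC1 at 174 and 174 CPM in control, 339 and 355 CPM under overexpression and 219 and 216 CPM in shCon. ITGA6, a laminin receptor subunit, rose from 30.3 and 34.5 CPM to 83.2 and 82.4 CPM, while its partner ITGB4 fell from 3.4 and 4.29 CPM to 0.234 and 0.326 CPM. LAMB2 was higher than control and lower than shCon. COL4A2 (-3.82 and -0.84) was among the laminin, collagen and integrin genes with the larger called changes against control. Its call against shCon was lost without either overexpression library or either shCon library and with DESeq2 (adjusted p = 0.249). LAMA5 (-0.11 and -0.26) and COL6A2 (0.06 and -0.66) had the higher levels among laminin, collagen and integrin genes that missed the threshold against control. COL5A1 (1.58 and -1.14) was called in opposite directions against control and shCon, within the laminin, collagen and integrin genes. Not every fit called ITGB4 (adjusted p up to 0.0667 without either overexpression library) and COL5A1 (adjusted p up to 0.137 without either overexpression library or shCon replicate 1) against shCon.

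NGFR, SFN, CD44 and DST, the 4 of 9 basal prostate markers that were tested against both references, all rose (9 listed, medians 6.76 and 5.20, 2 passed through overexpression alone and 2 of these rose). NGFR and CD44 were the members that passed through overexpression alone. The summed level of the list was 18.5 and 19.6 CPM in control, 260 and 244 CPM under overexpression and 22.6 and 22 CPM in shCon. SFN, the 14-3-3 sigma protein of stratified epithelia, was at 1.2 and 0.973 CPM in the control libraries, 141 and 129 CPM in the overexpression libraries and 3.53 and 3.81 CPM in the shCon libraries. CD44, a hyaluronan receptor, was at 0.048 and 0.133 CPM in control, 8.08 and 10.4 CPM under overexpression and 0.0821 and 0.246 CPM in shCon. The defining basal markers did not move with them: TP63 had 0 counts in 5 of 6 libraries, and KRT5 and KRT17 had 0 counts in both overexpression libraries. Among keratins, KRT8 was not called and KRT18, its luminal partner, was lower than control (603 and 621 against 464 and 453 CPM) and higher than shCon, as was KRT19. Of 4 keratins tested against both references 0 rose and 0 fell against both (15 listed, medians -0.83 and 0.05). KRT80 (-1.25 and 0.36) was named too for the size of the called change against control, within the keratins. A call against shCon that some fits did not make was that of KRT18 (adjusted p up to 0.0717 without either overexpression library or shCon replicate 2).

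HOX genes, which set position along the body axis, rose and fell within the same clusters. Of them 31 were tested against control, with 16 higher and 12 lower. Against both references 29 were tested, of which 15 rose, 3 fell and 4 were called in opposite directions (37 listed, medians 1.5 and 3.66, 18 passed through overexpression alone and 12 of these rose, 1 passed through a reference alone). HOXC10 was at 0.671 and 0.664 CPM in the control libraries, 16.6 and 15 CPM in the overexpression libraries and 2.79 and 2.79 CPM in the shCon libraries. Against control it was the HOX gene with the steepest rise among those above 5 CPM. It had a log2 fold change of 4.55 (SE 0.19, edgeR adjusted p = 4.96e-08) against control and 2.50 (SE 0.14, edgeR adjusted p = 2.19e-07) against shCon. HOXA5 was at 4.22 and 3.72 CPM in control, 13.3 and 15.1 CPM under overexpression and 0.164 and 0.082 CPM in shCon, and HOXA9 at 0.336 and 0.31 CPM in control, 4.53 and 4.84 CPM under overexpression and 0.0821 and 0.041 CPM in shCon. HOXB4 and HOXD9 had 0 counts in all 4 reference libraries and reached 1.78 and 1.91 CPM and 1.21 and 1.4 CPM. HOXC11 (0 and 0.0442 CPM in control, 0.514 and 1.12 CPM under overexpression and 0 and 0.041 CPM in shCon) was among the HOX genes with the larger called changes against control. HOXA4 (1.87 and 2.17 CPM in control, 1.45 and 2.19 CPM under overexpression and 0 and 0.041 CPM in shCon) was among the better expressed HOX genes that missed the threshold against control.

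Within the HOXA cluster the genes HOXA2, HOXA3, HOXA5, HOXA6, HOXA7 and HOXA9 rose against control, whereas HOXA10, HOXA11 and HOXA13 fell. HOXA10 was at 36.7 and 29.6 CPM in control, 17.8 and 18.2 CPM under overexpression and 0.123 and 0.451 CPM in shCon, so it lay below control and above shCon. HOXB7, HOXC8 and HOXD13 showed the same order, with HOXD13 at 7.77 and 7.34 CPM in control, 1.03 and 1.16 CPM under overexpression and 0.123 and 0.041 CPM in shCon. HOXC6, HOXB9 and HOXC12 fell against both references. Neighbouring HOX genes share overlapping transcripts, and counts of adjacent members can be split between them. For HOXC12 (adjusted p = 0.0563 without control replicate 1) the call against control was not made in all fits. The call against shCon did not hold in every fit for HOXC8 (adjusted p = 0.0642 without overexpression replicate 1) and HOXB9 (adjusted p up to 0.103 without either overexpression library).

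**Figure D3:**
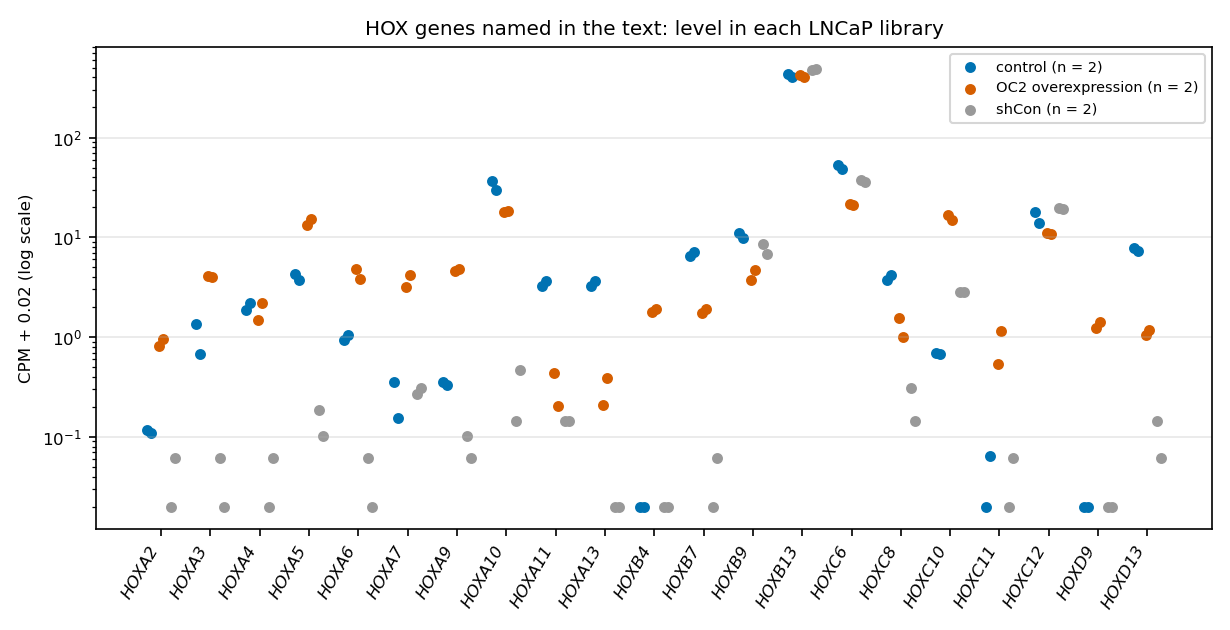
Level of 21 HOX genes named in the text in each of the 6 LNCaP libraries, as CPM plus 0.02 on a log axis, with 1 point per library. Overexpression libraries stand above both references for genes such as HOXC10 and HOXB4, and between control and shCon for HOXA10, HOXB7, HOXC8 and HOXD13.

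Foregut lineage factors, among which OC2 acts in development, went both ways. Of 9 tested against both references 4 rose and 1 fell (22 listed, medians 0.53 and 0.63, 1 passed through overexpression alone and 1 of these rose). MNX1, a homeobox factor of pancreas and motor neurons, was at 11.9 and 10.7 CPM in control, 32.2 and 27.4 CPM under overexpression and 16.9 and 14.5 CPM in shCon. SOX9, an epithelial progenitor factor, was at 7.43 and 6.24 CPM in control, 13.7 and 14.6 CPM under overexpression and 2.95 and 2.21 CPM in shCon. ISL1, a LIM homeobox factor, rose from 0.24 and 0.0442 CPM to 2.15 and 2.24 CPM. FOXA1, the pioneer factor of luminal cells, was at 453 and 416 CPM in control, 533 and 493 CPM under overexpression and 578 and 604 CPM in shCon, above control and below shCon. HNF4A, FOXA2 and FOXA3 were too low to test. NR0B2 (0.815 and 0.487 CPM in control, 0 and 0 CPM under overexpression and 0.041 and 0 CPM in shCon), NKX2-2 (3.02 and 3.01 CPM in control, 0.0467 and 0.0932 CPM under overexpression and 0.0821 and 0 CPM in shCon) and NKX6-1 (1.77 and 1.36) were also among the foregut factors called against control with the larger changes. PDX1 (-0.65 and 1.00) went opposite ways against control and shCon, among the foregut factors. An edgeR call against control was lost in an alternative fit for FOXA1 (adjusted p up to 0.232 without either overexpression library or control replicate 2) and PDX1 (adjusted p up to 0.168 without either overexpression library or control replicate 1 and 0.186 with DESeq2). In some alternative fits the call against shCon ended for FOXA1 (adjusted p up to 0.14 without overexpression replicate 2 or shCon replicate 2) and PDX1 (adjusted p up to 0.0945 without either overexpression library or shCon replicate 2 and 0.0768 with DESeq2).

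AGR2 (chr7:16791811-16833433), a disulfide isomerase of mucus-secreting cells, was at 0.863 and 1.11 CPM in the control libraries, 529 and 538 CPM in the overexpression libraries and 5.87 and 6.07 CPM in the shCon libraries. Both overexpression libraries exceeded all references, a log2 fold change of 9.06 (SE 0.12, edgeR adjusted p = 1.21e-10) against control and 6.48 (SE 0.07, edgeR adjusted p = 3.4e-12) against shCon. CREB3L1, a transmembrane factor of secretory cells, was at 0.0959 and 0.0442 CPM in control, 4.67 and 6.47 CPM under overexpression and 0.164 and 0.287 CPM in shCon. Other mucosal genes went down: TFF3, a trefoil peptide, fell from 3.6 and 2.48 CPM in control to 0.0467 and 0.0932 CPM, and LCN2, lipocalin, from 1.82 and 1.64 CPM to 0 and 0.14 CPM. Of 9 mucosal genes tested against both references 3 rose and 2 fell (20 listed, medians -0.88 and 0.36, 2 passed through overexpression alone and 2 of these rose, 3 passed through a reference alone). CREB3L4 (-0.88 and 0.34) and FCGBP (-0.70 and 0.81) were called one way against control and the other against shCon, among the mucosal genes. Against shCon, the call depended on the fit for CREB3L4 (adjusted p up to 0.163 without either overexpression library or shCon replicate 1).

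Glucuronidation enzymes, which inactivate androgens and other steroids, rose against control in all 6 genes tested, and in 4 of 6 against both references (12 listed, medians 6.36 and 0.96, 3 passed through overexpression alone and 2 of these rose). UGT2B11 was at 1.15 and 1.95 CPM in the control libraries, 319 and 335 CPM in the overexpression libraries and 4.55 and 5.91 CPM in the shCon libraries. UGT2B28 was at 0.288 and 0.265 CPM in control, 74 and 75.6 CPM under overexpression and 2.34 and 3.57 CPM in shCon. For UGT2B15 the values were 2.73 and 2.65 CPM in control, 100 and 109 CPM under overexpression and 39.2 and 32.7 CPM in shCon. UGT2B17 was at 0.863 and 0.664 CPM in control, 31.8 and 34.6 CPM under overexpression and 43.3 and 37.6 CPM in shCon, so overexpression was above control and slightly below shCon (-0.28 log2). UGT2B genes are near-identical copies, and the division of reads between them is uncertain. In steroid synthesis, 3 of 14 genes fell against both references, 1 rose and 5 were called in opposite directions (23 listed, medians 0.21 and -0.32, 3 passed through overexpression alone and 0 of these rose). HSD11B2, which inactivates cortisol, was the gene that rose, from 48.3 and 38.2 CPM to 76.8 and 81 CPM, and STS, steroid sulfatase, fell from 31.9 and 33.3 CPM to 10 and 10.3 CPM. UGT2B10 (0 and 0.0442 CPM in control, 4.77 and 4.24 CPM under overexpression and 0.944 and 0.738 CPM in shCon) was also among the glucuronidation enzymes called against control with the larger changes. CYP1B1 (4.99 and 4.56 CPM in control, 1.73 and 2.19 CPM under overexpression and 0 and 0 CPM in shCon) was also among the steroid synthesis genes called against control with the larger changes. HSD17B10 (0.12 and 0.41) and SULT2B1 (0.45 and 1.06) belonged to the better expressed steroid synthesis genes that were not called against control. CYP11A1 (1.02 and -1.26) was called one way against control and the other against shCon, among the steroid synthesis genes. Alternative fits ended the call against control of CYP11A1 (adjusted p up to 0.0692 without overexpression replicate 1 or control replicate 2 and 0.0713 with DESeq2). Not every fit called UGT2B17 (adjusted p up to 0.254 without either overexpression library or shCon replicate 1 and 0.0693 with DESeq2) and STS (adjusted p up to 0.101 without either overexpression library or shCon replicate 2) against shCon.

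Nuclear receptors were called at about the background share, with 6 of 29 higher against both references and 3 lower (34 listed, medians -0.11 and 0.12, 5 passed through overexpression alone and 3 of these rose). NR2F1, an orphan receptor linked to tumour cell dormancy, was at 0.959 and 1.24 CPM in the control libraries, 35.8 and 34.8 CPM in the overexpression libraries and 0.0821 and 0.246 CPM in the shCon libraries. Its relative NR2F2 moved the other way, at 121 and 121 CPM in control, 37.8 and 40 CPM under overexpression and 63.3 and 65.5 CPM in shCon. NR3C1, the glucocorticoid receptor, was at 0 and 0.133 CPM in control, 4.44 and 5.17 CPM under overexpression and 0.164 and 0.205 CPM in shCon, 69.6-fold (95% interval 23.5 to 340) above control. RXRA, the shared partner of many nuclear receptors, was at 162 and 147 CPM in control, 83.5 and 74.5 CPM under overexpression and 120 and 124 CPM in shCon. THRB was above control and below shCon. ESRRG (2.22 and -0.61) was among the nuclear receptors with the larger called changes against control. NR2F6 (0.13 and 0.04) and ESRRA (0.18 and 0.84) had the higher levels among nuclear receptors that missed the threshold against control. A call against control that some fits did not make was that of ESRRG (adjusted p up to 0.108 without overexpression replicate 1 or control replicate 2 and 0.168 with DESeq2).

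Among ETS factors, ETV1 (chr7:13891228-13991425) was at 0.671 and 0.531 CPM in the control libraries, 266 and 278 CPM in the overexpression libraries and 104 and 105 CPM in the shCon libraries. Overexpression exceeded both references, but shCon was itself far above control, with a log2 fold change of 8.81 against control and 1.38 against shCon. ETV4 was at 0.0959 and 0.0885 CPM in control, 9.16 and 10.1 CPM under overexpression and 0.656 and 0.533 CPM in shCon and ETV5 at 0.432 and 0.398 CPM in control, 6.78 and 7.96 CPM under overexpression and 0.862 and 0.82 CPM in shCon, both members of the same ETS subfamily. EHF, an epithelial ETS factor, fell from 320 and 358 CPM to 133 and 131 CPM, with shCon at 288 and 307 CPM. ELF5 fell against control, from 19.4 and 20.1 CPM to 0.28 and 0.233 CPM, and shCon was as low at 0.451 and 0.574 CPM. In total 8 of 21 rose and 3 fell against both references (24 listed, medians 0.46 and 0.22, 5 passed through overexpression alone and 4 of these rose, 1 passed through a reference alone). GABPA (0.16 and 0.25) and ELF2 (0.05 and 0.02) had the higher levels among ETS factors that missed the threshold against control. ETS1 (3.75 and -0.77) and ELF3 (0.48 and -0.72) were called in opposite directions against control and shCon, within the ETS factors. For ETS1 (adjusted p up to 0.231 without either overexpression library or either shCon library and 0.313 with DESeq2) the call against shCon was not made in all fits.

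Growth factor receptors were divided, 5 of 24 higher and 6 lower against both references (35 listed, medians -0.07 and -0.17, 3 passed through overexpression alone and 3 of these rose). EGFR was at 102 and 109 CPM in control, 26.7 and 26 CPM under overexpression and 50.8 and 57.7 CPM in shCon. ERBB3 fell by a smaller amount, from 181 and 176 CPM in control to 131 and 131 CPM, and ERBB4, another member of that receptor family, went from 0 control counts to 3.55 and 3.63 CPM. MET, the receptor for hepatocyte growth factor, was at 2.21 and 2.92 CPM in control, 6.92 and 7.78 CPM under overexpression and 0.615 and 0.533 CPM in shCon. GFRA1, a co-receptor for the neurotrophic factor GDNF, reached 1.59 and 0.932 CPM from 0 counts in all 4 reference libraries. In the IGF axis 2 of 10 rose and 1 fell against both references (17 listed, medians -0.02 and 0.18). IGFBP3, an IGF-binding protein, was at 4.36 and 3.8 CPM in control, 38.6 and 40.3 CPM under overexpression and 3.57 and 5.37 CPM in shCon, and IRS2, an adaptor of insulin and IGF receptors, at 9.97 and 8.49 CPM in control, 47 and 44.3 CPM under overexpression and 14.8 and 15.2 CPM in shCon. IGF1R rose against control, yet shCon was as high (41.5 and 53.4 CPM). MST1R (2.69 and 1.67) was also among the growth factor receptors and ligands called against control with the larger changes. DDR1 (-0.17 and -0.16) and GAS6 (-0.22 and -0.17) belonged to the better expressed growth factor receptors and ligands that were not called against control. FGFR4 (0.53 and -0.39) was called one way against control and the other against shCon, among the growth factor receptors and ligands. IGF1 (-1.74 and 2.60) was also among the IGF axis genes called against control with the larger changes. IGF2R (-0.13 and -1.35) and IGFBP2 (0.07 and 0.17) belonged to the better expressed IGF axis genes that were not called against control. The call against control did not hold in every fit for FGFR4 (adjusted p up to 0.0834 without overexpression replicate 1 or control replicate 2 and 0.0967 with DESeq2). An edgeR call against shCon was lost in an alternative fit for FGFR4 (adjusted p up to 0.13 without either overexpression library or shCon replicate 1 and 0.14 with DESeq2).

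TGFB1 and TGFB3, ligands of the TGF-beta pathway, rose, as did ID1 and ID3. Of 27 pathway genes tested against both references 8 rose and 2 fell (35 listed, medians 0.25 and 0.10, 5 passed through overexpression alone and 3 of these rose). TGFB3 was at 0.623 and 0.752 CPM in the control libraries, 55 and 57.8 CPM in the overexpression libraries and 0.41 and 0.451 CPM in the shCon libraries, a log2 fold change of 6.34 against control and 7.02 against shCon. TGFB1 was at 0.192 and 0.265 CPM in control, 6.21 and 6.1 CPM under overexpression and 0.574 and 0.205 CPM in shCon. Among targets of BMP signalling, ID3 was at 43 and 35.4 CPM in control, 160 and 157 CPM under overexpression and 8.45 and 14.9 CPM in shCon and ID1 at 33.2 and 29.9 CPM in control, 70.4 and 72.3 CPM under overexpression and 2.01 and 4.96 CPM in shCon. Of the receptor and SMAD genes, SMAD4 was not called against either reference, and TGFBR2, the type II receptor, was above control and below shCon. BMP2 (0 and 0 CPM in control, 0.935 and 0.652 CPM under overexpression and 0.041 and 0.041 CPM in shCon) was named too for the size of the called change against control, within the TGF-beta pathway genes. SKIL (-0.16 and 0.09) was among the highest-level TGF-beta pathway genes not called against control. GDF15 (0.95 and -1.32) went opposite ways against control and shCon, among the TGF-beta pathway genes. In some alternative fits the call against shCon ended for TGFBR2 (adjusted p = 0.0557 without overexpression replicate 2 and 0.0683 with DESeq2).

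Wnt pathway genes gave 7 of 28 higher and 3 lower against both references (35 listed, medians 0.02 and 0.14, 3 passed through overexpression alone and 2 of these rose). FZD8, a Wnt receptor, was at 6.19 and 5.93 CPM in control, 15.3 and 13.5 CPM under overexpression and 5.13 and 5.21 CPM in shCon, and LEF1, a nuclear effector, at 9.06 and 8.49 CPM in control, 18.3 and 19.2 CPM under overexpression and 10.8 and 10.9 CPM in shCon. FZD2 fell from 3.69 and 2.52 CPM to 0.607 and 0.466 CPM. The feedback genes AXIN2 and NKD1 had log2 fold changes of -0.31 and -0.64 against control and of -0.79 and -1.53 against shCon. In the Notch pathway 4 of 20 rose and 2 fell against both references, and 4 were called in opposite directions (25 listed, medians -0.01 and 0.06, 2 passed through overexpression alone and 2 of these rose, 1 passed through a reference alone). NOTCH3 was at 70.4 and 59.5 CPM in control, 19.7 and 17.7 CPM under overexpression and 69.9 and 53.2 CPM in shCon, and its ligand JAG1 at 30.8 and 32.7 CPM in control, 9.21 and 10.9 CPM under overexpression and 17.7 and 15.9 CPM in shCon. NOTCH1 was below control and above shCon. WNT11 (0.048 and 0 CPM in control, 1.17 and 0.699 CPM under overexpression and 0 and 0 CPM in shCon), NOTUM (0 and 0.0442 CPM in control, 0.607 and 0.606 CPM under overexpression and 0.328 and 0.574 CPM in shCon) and TCF7L1 (0.048 and 0.0442 CPM in control, 1.07 and 0.885 CPM under overexpression and 0.246 and 0.123 CPM in shCon) were named too for the size of the called change against control, within the Wnt pathway genes. LRP5 (-0.14 and -0.24) and FZD4 (-0.12 and 1.49) were among the highest-level Wnt pathway genes not called against control. NKD2 (0.86 and -0.44) and FZD1 (-0.52 and 0.63) went opposite ways against control and shCon, among the Wnt pathway genes. HEY2 (0 and 0 CPM in control, 0.981 and 1.02 CPM under overexpression and 0 and 0.041 CPM in shCon), DTX1 (0 and 0 CPM in control, 0.748 and 0.932 CPM under overexpression and 0.0821 and 0 CPM in shCon) and LFNG (-1.84 and 0.63) were named too for the size of the called change against control, within the Notch pathway genes. HES4 (0.07 and 0.32) and RBPJ (0.00 and -0.25) were among the highest-level Notch pathway genes not called against control. Against control, the call depended on the fit for NKD1 (adjusted p up to 0.107 without overexpression replicate 1 or control replicate 2 and 0.145 with DESeq2). Alternative fits ended the call against shCon of NOTCH1 (adjusted p up to 0.0784 without either overexpression library or shCon replicate 1), NKD2 (adjusted p up to 0.124 without either overexpression library or shCon replicate 1 and 0.18 with DESeq2) and LFNG (adjusted p up to 0.162 without overexpression replicate 1 or either shCon library and 0.169 with DESeq2).

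Genes of immune signalling and antigen presentation fell in part. Of 14 chemokine, cytokine and receptor genes tested against both references 7 fell and 2 rose (32 listed, medians -0.55 and -0.97, 1 passed through overexpression alone and 0 of these rose, 1 passed through a reference alone). TNFRSF19, a receptor of the TNF family, was at 36.8 and 37 CPM in control, 5.37 and 6.01 CPM under overexpression and 33.7 and 31.1 CPM in shCon. OSMR, the oncostatin M receptor, was at 13.1 and 11 CPM in control, 2.71 and 3.4 CPM under overexpression and 5.7 and 5.17 CPM in shCon. IL17RB, a receptor for interleukin 17B, was 1 of the 2 that rose, from 15.9 and 18.2 CPM to 44.8 and 46.7 CPM. Of 30 class I presentation and interferon-stimulated genes 10 fell and 2 rose against both references (34 listed, medians -0.20 and -0.73, 4 passed through overexpression alone and 0 of these rose, 3 passed through a reference alone). B2M, the light chain of class I molecules, was at 180 and 183 CPM in control, 110 and 117 CPM under overexpression and 183 and 182 CPM in shCon, and HLA-B, a heavy chain, at 44.8 and 39.4 CPM in control, 28.7 and 27.9 CPM under overexpression and 88.8 and 79.2 CPM in shCon. The transporters TAP1 and TAP2 were above control, TAP2 also above shCon. OAS1, an interferon-stimulated sensor of viral RNA, fell from 2.35 and 1.68 CPM to 0.327 and 0.466 CPM. CXCR4 (2.94 and -0.68) was among the cytokine and receptor genes with the larger called changes against control. IL6R (0.15 and 0.67) and CXCL16 (0.05 and 0.14) had the higher levels among cytokine and receptor genes that missed the threshold against control. PSMB8 (-4.22 and not tested), BST2 (-2.94 and 0.86) and IFI44 (1.52 and -0.84) were also among the class I and interferon genes called against control with the larger changes. IRF7 (0.27 and 1.10) belonged to the better expressed class I and interferon genes that were not called against control. STAT2 (0.50 and -0.27) was called one way against control and the other against shCon, among the class I and interferon genes. Not every fit called TAP1 (adjusted p up to 0.0659 without overexpression replicate 1 or control replicate 2) and IFI44 (adjusted p = 0.0551 without control replicate 1) against control. Calls against shCon that some fits did not make were those of OSMR (adjusted p = 0.0621 without overexpression replicate 1), TAP2 (adjusted p up to 0.0582 without overexpression replicate 1 or shCon replicate 1), IFI44 (adjusted p up to 0.136 without either overexpression library or shCon replicate 1 and 0.0668 with DESeq2) and STAT2 (adjusted p up to 0.0817 without overexpression replicate 2 or either shCon library and 0.081 with DESeq2).

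Cancer-testis antigens changed gene by gene. Of 16 tested against both references 7 rose and 2 fell, and 2 were called in opposite directions (28 listed, medians -0.13 and 3.18, 7 passed through overexpression alone and 6 of these rose, 1 passed through a reference alone). MAGEA10 was at 1.87 and 1.68 CPM in the control libraries, 32.4 and 33.7 CPM in the overexpression libraries and 3.61 and 2.91 CPM in the shCon libraries. CTAG2 was at 5.32 and 3.98 CPM in control, 73.1 and 67.2 CPM under overexpression and 0.0821 and 0.041 CPM in shCon, and CTAG1B, which has an identical copy that can take its reads, at 0 and 0.31 CPM in control, 27.3 and 40.8 CPM under overexpression and 0 and 0.041 CPM in shCon. PRAME fell, from 135 and 124 CPM in control and 117 and 111 CPM in shCon to 35 and 30.8 CPM. MAGEA1 was at 144 and 140 CPM in control, 82.2 and 79.9 CPM under overexpression and 1.23 and 1.39 CPM in shCon, below control and far above shCon. MAGEA12 was not called against either reference. TEX15 (0.048 and 0.0885 CPM in control, 8.69 and 10.1 CPM under overexpression and 1.27 and 0.533 CPM in shCon) was also among the cancer-testis antigens called against control with the larger changes. MAGED4 (0.15 and -1.13) belonged to the better expressed cancer-testis antigens that were not called against control. XAGE1A (-1.16 and 3.18) was called one way against control and the other against shCon, among the cancer-testis antigens. For MAGED4 the value against control turned to -9.49 (edgeR adjusted p = 0.00164) without overexpression replicate 2, so 1 library decides its direction.

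Cell cycle genes went both ways. Of 16 cyclin-dependent kinase inhibitors, D cyclins and related genes tested against both references 8 rose and 5 fell (17 listed, medians 0.20 and 0.26); without overexpression replicate 1 the rises numbered 5. CCND1 (chr11:69641087-69654474), cyclin D1, was at 374 and 360 CPM in the control libraries, 1297 and 1352 CPM in the overexpression libraries and 290 and 304 CPM in the shCon libraries. Replicates differed by little beside that change, a log2 fold change of 1.85 (SE 0.07, edgeR adjusted p = 2.52e-08) against control and 2.16 (SE 0.05, edgeR adjusted p = 5.57e-10) against shCon. Its kinase partner CDK6 was at 4.41 and 4.65 CPM in control, 22.6 and 24.3 CPM under overexpression and 5.74 and 5.41 CPM in shCon. CDKN1B, the inhibitor p27, was at 54.8 and 60.4 CPM in control, 89.5 and 96.8 CPM under overexpression and 48.1 and 51.6 CPM in shCon. RBL2, a relative of RB1, and CCNG2 fell. Among 32 S-phase genes 10 rose and 2 fell against both references (32 listed, medians 0.11 and 0.22), the rises numbering 6 without overexpression replicate 1, 5 without replicate 2 and 6 with library totals. E2F2 was at 18.3 and 17.9 CPM in control, 62.6 and 65.8 CPM under overexpression and 22.1 and 21.9 CPM in shCon, while MCM2 was not called. Of 30 mitosis genes 8 rose and 3 fell (30 listed, medians 0.03 and 0.19), 0 of them by 2-fold against control. CDKN2B (1.76 and 0.93) and CDKN2A (1.19 and 0.35) were also among the cell cycle regulators called against control with the larger changes. CDKN2D (0.20 and 0.95) and CDKN1C (-0.28 and -0.85) belonged to the better expressed cell cycle regulators that were not called against control. POLD1 (0.84 and 0.60) and POLE (0.79 and 0.79) were also among the S-phase genes called against control with the larger changes, although each was under 2-fold. RRM1 (0.14 and -0.10) belonged to the better expressed S-phase genes that were not called against control. PRIM1 (-0.29 and 0.19) was called one way against control and the other against shCon, among the S-phase genes. CDC25B (0.87 and 0.68), CCNB2 (-0.66 and -0.36), KIF2C (0.61 and 0.89) and NUF2 (0.59 and 0.47) were also among the mitosis genes called against control with the larger changes, although each was under 2-fold. FOXM1 (-0.08 and -0.22) and BIRC5 (0.15 and 0.35) belonged to the better expressed mitosis genes that were not called against control. AURKA (-0.27 and 0.22) and PTTG1 (-0.24 and 0.20) were called one way against control and the other against shCon, among the mitosis genes. For PRIM1 (adjusted p up to 0.182 without overexpression replicate 2 or control replicate 2 and 0.0797 with DESeq2), AURKA (adjusted p up to 0.119 without either overexpression library or control replicate 2) and PTTG1 (adjusted p up to 0.158 without either overexpression library) the call against control was not made in all fits. The call against shCon did not hold in every fit for PRIM1 (adjusted p up to 0.251 without either overexpression library or either shCon library and 0.221 with DESeq2), AURKA (adjusted p up to 0.0594 without overexpression replicate 1 or either shCon library) and PTTG1 (adjusted p up to 0.0709 without either overexpression library or shCon replicate 2).

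In the BCL2 family 4 of 18 rose and 2 fell against both references (19 listed, medians -0.01 and 0.08, 2 passed through overexpression alone and 1 of these rose, 1 passed through a reference alone). The death-promoting BBC3 was at 6.38 and 4.69 CPM in control, 18.8 and 18.9 CPM under overexpression and 8.29 and 8.24 CPM in shCon, and HRK rose from 0.144 and 0.133 CPM to 2.85 and 3.03 CPM. BCL2 rose against control only, shCon being at 8.16 and 8.04 CPM. Of 27 chromatin repression genes 8 rose and 1 fell (27 listed, medians 0.18 and 0.16, 1 passed through overexpression alone and 1 of these rose). KDM6A, an X-linked demethylase of the histone mark laid down by EZH2, was at 167 and 169 CPM in the control libraries, 45.2 and 46.8 CPM in the overexpression libraries and 179 and 173 CPM in the shCon libraries. Only the overexpression libraries were low, a log2 fold change of -1.87 (SE 0.07, edgeR adjusted p = 3.94e-08) against control and -1.94 (SE 0.06, edgeR adjusted p = 1.76e-09) against shCon. EZH2 itself was below control and above shCon. BID (-1.64 and -0.05) was named too for the size of the called change against control, within the BCL2 family genes. BCL2L2 (-0.08 and 0.09) and BAK1 (-0.01 and -0.33) were among the highest-level BCL2 family genes not called against control. BCL2L14 (-1.53 and 1.95) and BOK (-1.46 and 0.36) went opposite ways against control and shCon, among the BCL2 family genes. HDAC9 (0 and 0 CPM in control, 2.15 and 2.33 CPM under overexpression and 0.0821 and 0.082 CPM in shCon), DNMT3B (1.10 and 0.73) and TET1 (0.73 and -0.42) were named too for the size of the called change against control, within the chromatin repression genes, although that of TET1 was under 2-fold. DNMT1 (0.17 and 0.22) and RBBP7 (-0.17 and -0.06) were among the highest-level chromatin repression genes not called against control. DNMT3A (0.57 and -0.54) went opposite ways against control and shCon, among the chromatin repression genes. An edgeR call against control was lost in an alternative fit for BCL2L14 (adjusted p = 0.0826 with DESeq2) and TET1 (adjusted p up to 0.0792 without overexpression replicate 1 or control replicate 2 and 0.168 with DESeq2). In some alternative fits the call against shCon ended for BCL2L14 (adjusted p up to 0.0622 without overexpression replicate 2 or either shCon library and 0.197 with DESeq2) and BOK (adjusted p up to 0.0758 without overexpression replicate 1 or either shCon library).

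Amino acid supply genes under the stress factor ATF4 rose together. Of 24 tested against both references 16 rose and 1 fell (25 listed, medians 0.83 and 0.75). SLC3A2, the heavy chain of several amino acid exchangers, was at 158 and 142 CPM in the control libraries, 821 and 799 CPM in the overexpression libraries and 140 and 147 CPM in the shCon libraries. ATF4 itself was at 319 and 312 CPM in control, 578 and 555 CPM under overexpression and 351 and 330 CPM in shCon. ASNS, asparagine synthetase, was at 121 and 128 CPM in control, 249 and 261 CPM under overexpression and 108 and 117 CPM in shCon, and SLC1A5, a glutamine transporter, at 223 and 199 CPM in control, 434 and 423 CPM under overexpression and 170 and 200 CPM in shCon. SLC7A5, a light chain partner of SLC3A2, was at 288 and 258 CPM in control, 112 and 114 CPM under overexpression and 11.2 and 12.9 CPM in shCon, below control and above shCon. DDIT3, which also reports this response, was in the same order. Endoplasmic reticulum chaperones depended on the reference: 12 of 20 were below control and 16 of 20 above shCon, with 9 called in opposite directions (20 listed, medians -0.27 and 0.58). XBP1, a factor of the unfolded protein response, was at 373 and 352 CPM in control, 248 and 238 CPM under overexpression and 133 and 133 CPM in shCon. FGF21 (0.959 and 0.929 CPM in control, 0.0467 and 0.0466 CPM under overexpression and 0.205 and 0.164 CPM in shCon), ALDH1L2 (1.97 and 5.62) and CHAC1 (1.33 and 1.19) were named too for the size of the called change against control, within the ATF4 response genes. DDIT4 (0.00 and -0.39) and PSPH (0.17 and 0.15) were among the highest-level ATF4 response genes not called against control. DNAJB9 (-1.18 and 0.52), PDIA3 (-0.66 and -0.14) and ERN1 (-0.50 and -0.36) were among the endoplasmic reticulum genes with the larger called changes against control, although that of PDIA3 and ERN1 was under 2-fold. CALR (-0.16 and 0.21) and HSP90B1 (0.14 and 0.67) had the higher levels among endoplasmic reticulum genes that missed the threshold against control. Against shCon, the call depended on the fit for DDIT3 (adjusted p = 0.0517 without overexpression replicate 1) and DNAJB9 (adjusted p up to 0.126 without either overexpression library or shCon replicate 1).

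Lipid genes went both ways. FASN, fatty acid synthase, was at 2503 and 2181 CPM in the control libraries, 6501 and 6352 CPM in the overexpression libraries and 1711 and 1618 CPM in the shCon libraries. The rise was a log2 fold change of 1.45 against control and 1.95 against shCon. SCD, the desaturase that acts on its products, was at 1197 and 1225 CPM in control, 2261 and 2235 CPM under overexpression and 756 and 846 CPM in shCon. FABP5, a fatty acid-binding protein, went from 0.192 and 0.0885 CPM to 15 and 15.4 CPM, and ACSL4, an acyl-CoA synthetase for polyunsaturated fatty acids, was at 2.06 and 2.74 CPM in control, 14.5 and 14.8 CPM under overexpression and 3.41 and 3.2 CPM in shCon. ELOVL7, an elongase, fell from 126 and 128 CPM to 21.5 and 25.5 CPM. Of 28 fatty acid genes 9 rose and 4 fell against both references (28 listed, medians 0.10 and 0.29, 2 passed through overexpression alone and 2 of these rose, 1 passed through a reference alone), and 6 were called in opposite directions. Cholesterol genes gave 10 of 24 higher and 2 lower (25 listed, medians 0.10 and 0.45, 1 passed through a reference alone). HMGCS1, an early enzyme of cholesterol synthesis, was at 69.3 and 80.9 CPM in control, 112 and 125 CPM under overexpression and 73.4 and 78 CPM in shCon. PLIN2 (2.23 and 4.02) was named too for the size of the called change against control, within the fatty acid genes. ACLY (0.09 and 0.38) and ACADVL (0.01 and -0.39) were among the highest-level fatty acid genes not called against control. SCD5 (2.10 and -1.60) and ELOVL6 (1.62 and -1.41) went opposite ways against control and shCon, among the fatty acid genes. ABCA1 (-2.65 and -2.14), INSIG1 (-1.35 and 0.32) and MSMO1 (0.75 and 0.90) were named too for the size of the called change against control, within the cholesterol genes, although that of MSMO1 was under 2-fold. The call of ABCA1 against shCon was lost without either overexpression library or shCon replicate 1 and with DESeq2 (adjusted p = 0.0978). SCARB1 (-0.03 and 0.20) and MVD (0.25 and 0.78) were among the highest-level cholesterol genes not called against control. CYP51A1 (-0.29 and 0.85) went opposite ways against control and shCon, among the cholesterol genes. Alternative fits ended the call against control of CYP51A1 (adjusted p up to 0.0918 without either overexpression library). Not every fit called INSIG1 (adjusted p up to 0.0779 without either overexpression library) against shCon.

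Antioxidant genes rose against control in 18 of 24, and in 11 of 24 against both references (6 with library totals), with 3 lower (28 listed, medians 0.69 and 0.17, 5 passed through overexpression alone and 1 of these rose). SLC7A11, the cystine transporter, was at 45.7 and 53.4 CPM in control, 109 and 115 CPM under overexpression and 52 and 51 CPM in shCon. NQO1 rose from 65.3 and 70.5 CPM in control to 247 and 254 CPM, with shCon at 228 and 207 CPM. AKR1C1 and AKR1C2, near-identical reductases, were above control and below shCon. Glycolysis genes gave 6 of 27 higher and 8 lower against both references (28 listed, medians -0.13 and -0.08, 1 passed through overexpression alone and 1 of these rose); the falls numbered 4 without overexpression replicate 1, 3 without replicate 2, 5 without shCon replicate 2 and 3 with no filter on counts. SLC16A1, a lactate transporter, was at 124 and 126 CPM in control, 216 and 224 CPM under overexpression and 135 and 139 CPM in shCon. SLC16A3, another one, was at 161 and 149 CPM in control, 2.15 and 2.65 CPM under overexpression and 0.903 and 0.861 CPM in shCon, so only the control libraries were high. AKR1C3 (0.048 and 0.0442 CPM in control, 0.841 and 1.35 CPM under overexpression and 1.64 and 1.27 CPM in shCon) was also among the antioxidant genes called against control with the larger changes. TALDO1 (-0.11 and 0.01) and HMOX1 (-0.05 and 0.17) belonged to the better expressed antioxidant genes that were not called against control. ADM (2.61 and 1.80), ANKRD37 (-1.25 and -1.20) and CA12 (1.09 and 0.30) were named too for the size of the called change against control, within the glycolysis and hypoxia genes. The call against shCon was lost for ANKRD37 without overexpression replicate 2 or shCon replicate 2. For CA12 it was lost without either overexpression library or shCon replicate 2. ALDOA (-0.13 and -0.02) and ENO1 (0.10 and 0.13) were among the highest-level glycolysis and hypoxia genes not called against control. LDHB (0.19 and -0.39) went opposite ways against control and shCon, among the glycolysis and hypoxia genes. A call against control that some fits did not make was that of LDHB (adjusted p up to 0.368 without either overexpression library or control replicate 1). For NQO1 (adjusted p up to 0.148 without either overexpression library or shCon replicate 2) the call against shCon was not made in all fits.

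Mitochondrially encoded genes separated the references more than overexpression from control. Against control 4 of 13 fell and 0 rose, while all 13 were higher than shCon (13 listed, medians -0.03 and 1.56). Their summed level was 92365 and 87098 CPM in control, 88888 and 88211 CPM under overexpression and 31485 and 25672 CPM in shCon. The 10 most abundant genes took 10.5% to 11% of counts in the 4 libraries and 4.92% and 5.54% in shCon. The part of this difference in the results against shCon was not tested. MT-ND3 (-0.64 and 1.54), MT-ATP8 (-0.59 and 0.85), MT-ND2 (-0.41 and 1.63) and MT-ATP6 (-0.21 and 1.49) were also among the mitochondrially encoded genes called against control with the larger changes, although each was under 2-fold. MT-CO1 (0.01 and 1.56) and MT-ND4 (0.08 and 1.84) belonged to the better expressed mitochondrially encoded genes that were not called against control. The call against control did not hold in every fit for MT-ATP6 (adjusted p up to 0.126 without either overexpression library).

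Some of the steepest changes against control were not found against shCon. DPP4, a surface peptidase, was at 122 and 135 CPM in the control libraries, 0.327 and 0.466 CPM in the overexpression libraries and 0.369 and 0.369 CPM in the shCon libraries. It was high only in control, and against shCon it was too low to test. SLCO3A1, an organic anion transporter, and CXCL12, a chemokine, showed the same pattern, CXCL12 at 6.91 and 4.82 CPM in control, 0.0467 and 0 CPM under overexpression and 0.164 and 0.205 CPM in shCon. EFCC1 and PRSS1 were high only in control too, at 7.72 and 6.81 CPM and 12.4 and 9.78 CPM. MT1G, a metallothionein, was at 0.048 and 0 CPM in control, 23.5 and 24.2 CPM under overexpression and 22.3 and 21.1 CPM in shCon, and PRXL2A and PALM were similar, low only in control. The protocadherins PCDHB5 and PCDHB2 rose against control and were lower than shCon, PCDHB5 at 0.144 and 0.0885 CPM in control, 11 and 10.9 CPM under overexpression and 46.4 and 46.7 CPM in shCon.

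Genes next to each other on a chromosome moved together in some places, a pattern looked for after the data had been seen. Windows of 10 Mb (hg38) with at least 15 genes at a mean of 5 CPM or more numbered 249 and held 10876 genes. The quartiles of their median log2 fold changes against control were -0.16 and 0.14. On chromosome 13, from 20 to 30 Mb, all 34 genes were below control, 33 of them called, with a median of -1.12, but against shCon the median was 0.12. The next window, 30 to 40 Mb, had medians of -0.96 against control and 0.23 against shCon over 22 genes. RFC3, a replication factor in that region, was at 122 and 122 CPM in control, 49.8 and 57.5 CPM under overexpression and 45.6 and 42.8 CPM in shCon. On chromosome 6, from 80 to 90 Mb, 19 of 24 genes rose, with medians of 1.01 and 0.29. An edgeR call against shCon was lost in an alternative fit for RFC3 (adjusted p up to 0.164 without overexpression replicate 2 or either shCon library).

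Medians of at least 0.4 in size against control were found in 9 windows upwards and 15 downwards, of which 2 and 2 were also that large against shCon. The 2 upwards lie on chromosome 1, from 10 to 20 Mb (60 genes, 0.53 against control and 0.50 against shCon) and from 20 to 30 Mb (98 genes, 0.52 and 0.52). The 2 downwards lie on chromosome 15, from 20 to 30 Mb (21 genes, -0.71 and -0.58), and on chromosome 4, from 0 to 10 Mb (74 genes, -0.44 and -0.45). Smaller shifts shared by both references were found in the medians over all genes of some chromosomes. The medians were -0.36 and -0.27 on chromosome 15 (393 genes) and -0.23 and -0.20 on chromosome 16 (575 genes). On chromosome 1 they were 0.28 and 0.24 (1160 genes), but the shared shift did not run along its whole length. There the windows from 200 to 250 Mb had medians of 0.15 to 0.35 against control and of -0.07 to 0.10 against shCon. On chromosome 19, from 40 to 50 Mb, 105 of 152 genes rose against control. TNFRSF19, described above, lies in the first chromosome 13 window and was low against shCon as well. DNA copy number was not measured, and its part in these changes was not tested.

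**Figure D4:**
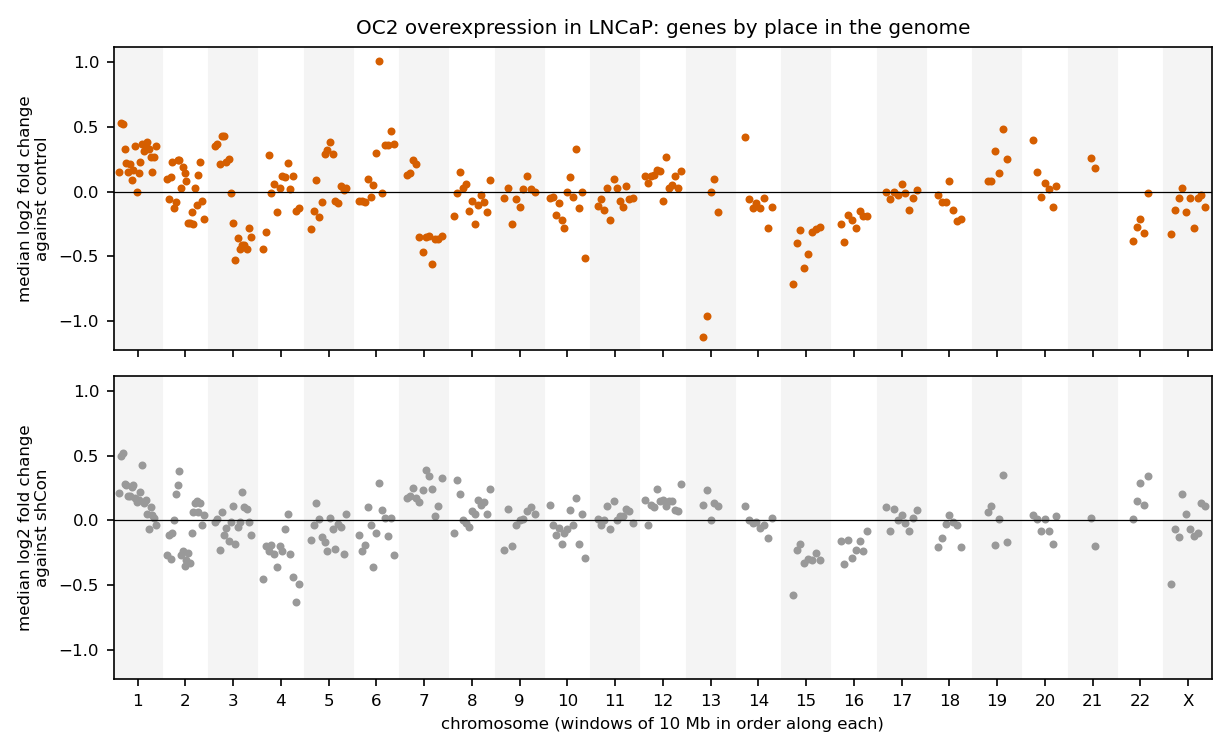
Median log2 fold change of the genes in each 10 Mb window, against control (top) and against shCon (bottom), for 249 windows in order along the chromosomes, with 1 point per window. The lowest points against control, -1.12 and -0.96 on chromosome 13, are 0.12 and 0.23 against shCon, whereas the high windows of chromosome 1 stay at 0.50 and 0.52.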

How the data were processed

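Total RNA was isolated with RNeasy columns and sequenced on an Illumina platform, per the labels' protocols. The authors deposited estimated counts per gene, of which 11.1% to 12.5% per library differed from a whole number by more than 0.001; all were rounded. FastQC 0.9.0, Bowtie2 and the build hg38 are named in the submitters' processing notes; the counting tool, its strand setting and the annotation were not given in the sources used here. Total counts were 21686338 to 23272088 per library.

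Genes were filtered with filterByExpr, scaled by TMM and tested with edgeR 4.0.16 (quasi-likelihood F test, limma 3.58.1, R 4.3.3), overexpression against control and, in a separate fit, against shCon, with Benjamini-Hochberg adjustment over all genes tested and a threshold of 0.05. DESeq2 1.42.0 was an alternative. Standard errors are the log2 fold change divided by the root of the F statistic. On simulated counts with 100 genes changed at each size, 92% of 2-fold changes were recovered in both comparisons, and 100% and 99% of 4-fold changes against control and shCon. Of the unchanged genes, 9 were called against control and 2 against shCon. The changed genes were well counted, few and balanced in direction, and every gene was given the same spread. The real data differ in these settings, so the rates do not carry over to them.

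The members, the 43 gene lists (1022 different genes) and the tests were chosen with earlier results of these data known. The rule named ONECUT2, the 15 steepest rises and falls against both references (higher group at 5 CPM or more on average, no overlap, ranked by the smaller change), up to 5 rises and 5 falls against control alone, and from each list up to 4 called, the 2 highest uncalled and 2 oppositely called members. It named 310 genes. The 104 genes added after their values were seen were ACP3, ASNS, ATF4, AXIN2, B2M, CACNA1H, CCNG2, CD3E, CDH1, CDH5, CDKN1B, CELF4, CELF5, CHGA, CPLX2, CTAG2, DES, DSP, EHF, ERBB3, FASN, FN1, FOLH1, FOXA2, FOXA3, FZD8, GPC1, HBB, HCN2, HES6, HLA-B, HNF4A, HOXA10, HOXA11, HOXA13, HOXA2, HOXA3, HOXA5, HOXA6, HOXA7, HOXA9, HOXB9, HOXC12, HOXC6, HOXC8, HSD11B2, ID1, ID3, IL17RB, INSM1, ITGA6, JAG1, KCND3, KCNQ1, KRT17, KRT5, LAMC1, LEF1, MAGEA10, MET, MMP2, MNX1, MS4A1, NCAM1, NEUROD1, NKD1, NQO1, ONECUT1, PCSK2, PLXND1, POC1B-GALNT4, POU3F2, PRAME, PTBP3, PTPRC, RAB3B, RBL2, RXRA, SCD, SCRT1, SLC16A1, SLC1A5, SLC7A11, SOX11, SOX2, SOX9, SPDEF, SRRM3, SSX2B, STEAP1, STMN3, SYP, TAP1, TAP2, TJP1, TM4SF1, TMPRSS2, TP63, TUBB3, TWIST2, UCHL1, UGT2B15, ZEB1 and ZEB2. Some genes are not reported here. The column named Control was taken as the LNCaP control because drug vehicle libraries have a table of their own. Replicates of a group differed by more than sampling noise.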

Additional observations from a re-analysis of the deposited data

How the results depend on the processing

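Counts of changed genes stayed within 1.5 times of the reported ones under RLE factors, library totals, no filter, a 1 CPM filter, 1 fit over 8 LNCaP libraries and DESeq2, which called 8188 genes against control, 8464 against shCon and 4305 the same way against both. A test against a 1.5-fold change (glmTreat) called 4490, 4167 and 2111. Leaving out each library gave 8432 to 9227 genes against control, 7077 to 8375 against shCon and 3772 to 5368 against both, the lowest without overexpression replicate 2. Under glmTreat, falls among luminal genes went from 14 to 7, surface targets from 9 to 2, junction genes from 8 to 1, glycolysis genes from 8 to 1 and class I and interferon genes from 10 to 4. Rises went from 10 to 1 among cholesterol genes, 10 to 2 among S-phase genes, 11 to 3 among antioxidant genes, 8 to 2 among cell cycle regulators, 8 to 1 among chromatin repression genes, 8 to 0 among mitosis genes, 8 to 5 in the TGF-beta pathway and 8 to 4 among ETS factors. Of the genes named, glmTreat ended 51 calls against control and 96 against shCon. Of the genes named, the value of MAGED4 against control reversed without overexpression replicate 2 (-9.49) and ranged up to 4.64 with another library left out, and with library totals against shCon PKP3 (-0.04), PLPP1 (-0.03) and TALDO1 (-0.17) reversed. Calls against control that ended without a library or with DESeq2 stand beside the genes above, but those against shCon only in part. Not given there were the losses against shCon of BIRC5, CALR, CDKN1C, CDKN2B, COL6A2, DDR1, DTX1, ERN1, FOXM1, GABPA, HES4 and LAMA5. The same held for LRP5, MST1R, PDIA3, PKP3, PLXNA1, RBPJ, SATB1, SCARB1, SLC39A6, SOX4, TCF7L1 and VWF. The cause of these losses was not tested. Library totals ended the call against control of LDHB and against shCon of AURKA, BOK, CA12, CALR, CREB3L4, DNMT1, GABPA, HES4, INSIG1, KLK2, KRT18, LFNG, NOTCH1, NQO1, PLXNA1, PMEPA1, PRIM1, PTTG1, RFC3, SCARB1, SLC39A6, TAP2 and VAMP2. The fit with no filter ended it against control for ESRRG, FOXA1, HOXC12, LDHB and PDX1 and against shCon for ABCA1, ANKRD37, CA12, CELF1, COL4A2, COL5A1, CREB3L4, DDR1, DNAJB9, ERN1, ETS1, FGFR4, FKBP5, FOXA1, FOXM1, GALNT4, GPC3, HES4, HOXB9, IFI44, KLK2, LAMA5, LFNG, LOXL2, LRP5, NKD2, NQO1, ONECUT3, PKP3, PLPP1, PMEPA1, PRIM1, RBPJ, REST, RFC3, SOX4, STAT2, STS and UGT2B17, and the replicate block against shCon for ETS1 and PKP3. Of 73 named genes not called against control, 19 were called with the replicate block (BIRC5, CALR, DDR1, DNMT1, DSP, ESRRA, FKBP5, IL6R, IRF7, KRT8, LRP5, MVD, PKP3, PLXNA1, PSPH, PTBP1, RBBP7, RRM1 and SOX4), 12 with 1 fit over 8 libraries (BIRC5, CALR, DNMT1, DSP, ESRRA, IL6R, IRF7, KRT8, MVD, PSPH, RBBP7 and SULT2B1) and 2 with DESeq2 (CALR and KRT8). Library totals added calls against shCon for ALDOA, GAS6, GJB2, IGF1R, KRT8, MAGEA12, MCM2, PDGFRB, PRXL2A, RBBP7, RRM1, TAP1 and TET1.

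The labels link same-numbered libraries by the number only, and whether they were handled together is not known. Their deviations from the group means had r = 0.256 across genes between overexpression and control and -0.00834 between overexpression and shCon. With the replicate number as a block 11256 genes were called against control, 10898 against shCon and 6159 the same way against both. With 2 libraries a group, genes under about 3 counts in a library give no usable fold change.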
